A study of Homo sapiens with 2 samples.

Results

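Chromatin remodelling and Polycomb subunits were followed as 43 named genes out of 52402 gene symbols, matched by symbol in count tables of DLD1 cells, a human colorectal adenocarcinoma line. Members were chosen by name from the SWI/SNF, ISWI, CHD, NuRD, INO80 and Polycomb complexes. The rule used no values, but earlier results of these data were known when it was made. The groups were 1 library labelled HERV-R knockout, after an endogenous retrovirus whose envelope (env) gene the study's title names, and 1 control library with the genotype label WT. Both libraries carry the same label text: cells received vectors for Cas9 and a guide RNA by lipofection, and colonies were selected with hygromycin. The sources used here do not give the guide's target position, what guide the control received, or whether either line is 1 clone. Both grew in DMEM with fetal bovine serum and antibiotics. As each group is 1 library, differences have no replicate check and no p-value is given. Every interval is an exact 95% interval (Clopper-Pearson) and covers counting error only. In bulk RNA, fewer cells with a transcript and less of it per cell cannot be told apart.

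Nucleosome remodellers use ATP to slide, evict or exchange histones. SWI/SNF (BAF) complexes mainly open promoters and enhancers, NuRD couples remodelling to histone deacetylation, and INO80-type complexes exchange histone variants. Polycomb repressive complex 2 (PRC2) methylates histone H3, and complex 1 (PRC1) ubiquitinates histone H2A and compacts chromatin, and both keep developmental genes silent. In colorectal cancer, SWI/SNF genes such as ARID1A are recurrently mutated, and EZH2, the PRC2 enzyme, is often abundant in dividing tumour cells.

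The library labelled knockout held 16406308 counts and the control 21881122. Values are counts per 1000000 of the library total (CPM), and 1 CPM stands for 16.4 counts in the library labelled knockout and 21.9 in the control. ERV3-1, the gene of the HERV-R envelope, had 125 counts (7.62 CPM) in the library labelled knockout and 127 (5.80 CPM) in the control, so the label is not borne out by a loss of this RNA. Counts over a whole gene would not show a small edit. Of 11 colon epithelial markers, 8 reached a mean of 1 CPM, among them EPCAM, with 749.8 CPM in the library labelled knockout and 700.6 CPM in the control. The 11 markers summed to 5818 CPM in the library labelled knockout and 11551 CPM in the control, with KRT20 and CDX1 at 0 counts in both and LGALS4 at 8 counts in both. CEACAM5 was low, with 34 counts in the library labelled knockout and 111 in the control, while KRT8, KRT18 and KRT19 were at least 2-fold lower and CDX2 was 2.998-fold higher in the library labelled knockout. Markers of fibroblasts (7 genes) summed to 2.80 CPM in the library labelled knockout and 5.76 CPM in the control. Those of blood cells (7 genes) summed to 66.6 CPM in the library labelled knockout and 38.7 CPM in the control, most of it from CORO1A. Endothelial markers (5 genes) summed to 6.58 CPM in the library labelled knockout and 9.73 CPM in the control. Apart from CORO1A, the genes of these lists were low. The 2 of highest mean in each list were PDGFRB and COL1A1 (38 and 6 counts in the library labelled knockout, 102 and 24 in the control), CORO1A and CD68 (1076 and 15 in the library labelled knockout, 789 and 54 in the control), and ESAM and VWF (101 and 7 in the library labelled knockout, 199 and 13 in the control). Among the genes of these lists at 0 counts in both were COL1A2, COL3A1, DCN, PTPRC, CD3E, CDH5 and KDR. PTPRC, KRT20 and LGALS4 stand on 2 rows each, and their low values carry the doubt given for SMARCB1. The part of the keratin and CDX2 differences in the members' ratios was not tested.

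The members had, in all, 5072 CPM in the library labelled knockout and 3802 CPM in the control, a ratio of 1.33 (1.32 to 1.35). The comparison covered 12644 genes whose mean over both libraries reached 1 CPM, and 41 of the 43 members were among them. A gene was called when its log2 ratio, with 1 CPM added to both values, reached 1 in either direction. ARID1A, INO80 and EZH2 were called higher, 3 of 41 members against 6.78% of all compared genes. SMARCD3 was called lower, 1 of 41 against 5.69% of all. Both shares are near those of all genes, so the number of 2-fold calls sets nothing apart. Smaller ratios were more one-sided: 34 of 41 members had a log2 ratio above 0, against 58.1% of all compared genes, and 7 lay below 0, against 41.9%. The members' median log2 ratio was 0.37, against 0.12 for all genes. At 1.5-fold, 14 of 41 members (34.1%) were higher, against 20.3% of all genes, and 1 (2.44%) was lower, against 13.2% of all. Scaling with edgeR's trimmed mean (TMM), with the upper quartile, or with DESeq2's size factors (the median of gene ratios) moves a ratio without a pseudocount by -0.12, -0.14 and -0.16 on the log2 scale in that order, and less for low genes once 1 CPM is added. The members' median was then 0.25, 0.23 and 0.21, against 0.00628, -0.0123 and -0.0284 for all genes. Above 0 lay 32, 32 and 31 members. The share of all genes above 0 was not taken with these scalings, and the 58.1% holds for library totals only. Over all genes, library totals gave 857 calls higher and 719 lower, whereas TMM gave 603 higher and 873 lower, so the direction of the background turned. At 1.5-fold with TMM, 10 of 41 members were higher, against 1958 of 12644 genes, and 1 was lower, against 2131. With library totals, 32 of 41 members lay above the median of all compared genes, where 50% lie by construction.

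**Figure D1:**
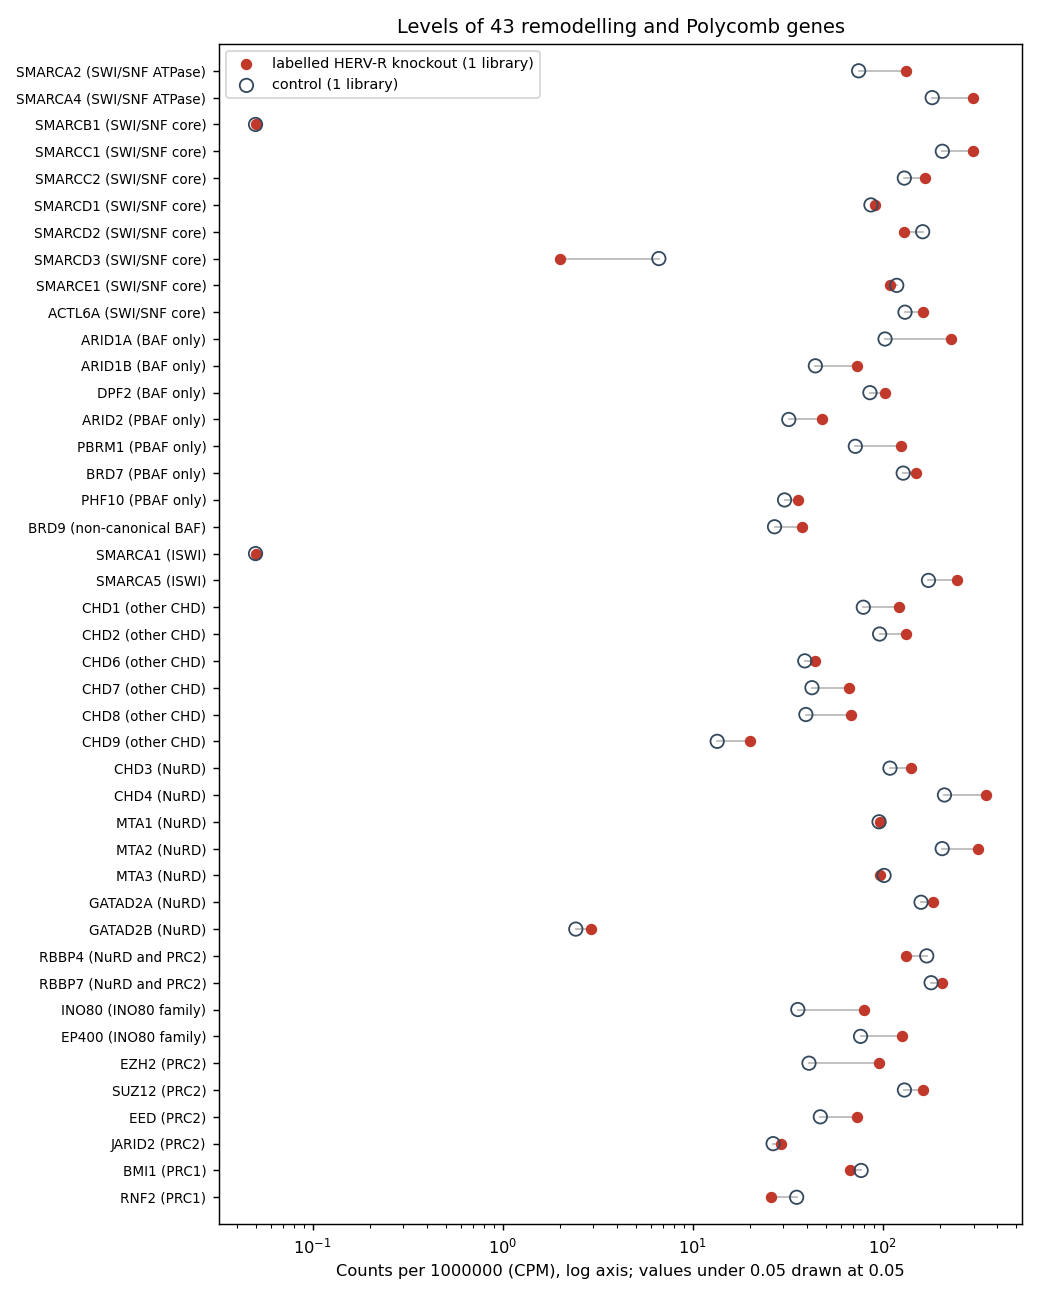
Counts per 1000000 (log axis) of the 43 members in the library labelled HERV-R knockout (filled) and in the control (open), 1 library each, ordered by complex, with values near 0 drawn at the left edge. SMARCB1 and SMARCA1 lie at the left edge in both libraries, and most other pairs have the filled point to the right, with SMARCD3 the widest pair in the other direction.

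The promoters of the 4 members called at 2-fold are shown because these genes carry the strongest ratios. Sequences are from the RefSeq promoter table (GRCh38.p14), 250 bases before to 50 after an annotated start, 5′ to 3′ on the gene's strand, and a RefSeq start can differ from the GENCODE gene end given later. For genes with several annotated starts the most upstream one is given (EZH2 has 2 windows and SMARCD3 has 3). Capitals mark matches, on either strand, to 3 motifs: E2F (TTTCCCGC, TTTCGCGC, TTTGCCGC or TTTGGCGC), NRF1 (GCGCA, any base, then GCGC) and the CCAAT box (CCAAT).
EZH2, chr7:148884242-148884541, minus strand: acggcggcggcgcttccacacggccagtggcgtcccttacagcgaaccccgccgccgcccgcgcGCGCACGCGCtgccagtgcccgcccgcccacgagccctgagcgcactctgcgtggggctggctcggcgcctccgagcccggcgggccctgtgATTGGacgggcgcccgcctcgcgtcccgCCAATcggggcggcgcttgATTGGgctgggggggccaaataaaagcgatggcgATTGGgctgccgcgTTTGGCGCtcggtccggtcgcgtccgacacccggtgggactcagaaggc
ARID1A, chr1:26695765-26696064, plus strand: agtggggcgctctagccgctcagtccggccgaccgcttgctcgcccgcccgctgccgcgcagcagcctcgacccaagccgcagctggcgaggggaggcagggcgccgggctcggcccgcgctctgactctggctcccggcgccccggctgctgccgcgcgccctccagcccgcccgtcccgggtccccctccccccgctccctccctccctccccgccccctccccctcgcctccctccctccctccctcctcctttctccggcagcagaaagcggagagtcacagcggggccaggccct
INO80, chr15:41116231-41116530, minus strand: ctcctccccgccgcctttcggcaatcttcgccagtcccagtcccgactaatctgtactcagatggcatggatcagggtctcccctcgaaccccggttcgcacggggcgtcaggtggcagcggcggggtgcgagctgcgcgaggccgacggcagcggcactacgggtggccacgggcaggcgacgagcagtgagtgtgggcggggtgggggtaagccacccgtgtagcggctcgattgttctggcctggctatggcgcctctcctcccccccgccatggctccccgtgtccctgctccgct
SMARCD3, chr7:151277100-151277399, minus strand: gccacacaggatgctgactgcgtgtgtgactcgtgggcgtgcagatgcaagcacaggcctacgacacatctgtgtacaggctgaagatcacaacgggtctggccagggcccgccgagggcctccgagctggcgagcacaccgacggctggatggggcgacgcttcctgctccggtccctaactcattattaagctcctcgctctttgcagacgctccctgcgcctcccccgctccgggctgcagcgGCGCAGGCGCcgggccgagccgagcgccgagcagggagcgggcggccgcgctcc
The EZH2 window held 1 E2F match close to the start, 1 NRF1 match and 4 CCAAT boxes. Neither the ARID1A nor the INO80 window held a match, and that of SMARCD3 held 1 NRF1 match. Over all 35116 windows of the table, 3.31% held an E2F form, 5.78% the NRF1 form and 34.6% a CCAAT box. Among 59 windows of the 37 members in the table, 3 (5.08%), 10 (16.9%) and 19 (32.2%) did. Windows were counted, so a gene with several starts counts more than once. The windows of the whole table were not limited to compared genes or matched in base composition, so the shares are not a test of enrichment. A match is a run of letters and no evidence of binding.

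EZH2, the methyltransferase of PRC2, lies on chromosome 7 (148807383 to 148884321, GENCODE 29, GRCh38) and had the highest ratio of the compared members. It had 95.6 CPM in the library labelled knockout (1569 counts) and 40.9 CPM in the control (894 counts), 2.34-fold higher (2.15 to 2.54). It was the only member still called higher with each of the 4 scalings, at log2 ratios of 1.05 to 1.21. EED, which binds the methyl mark and stimulates the enzyme, had 73.5 CPM in the library labelled knockout and 46.9 CPM in the control (1.57-fold; 1.44 to 1.71). SUZ12, the scaffold of the complex, had 161.7 CPM in the library labelled knockout and 129.9 CPM in the control (1.25-fold). The accessory subunit JARID2 had 29.3 CPM in the library labelled knockout and 26.5 CPM in the control, and its interval of 0.978 to 1.25 includes 1. Thus the enzyme had a larger ratio than each of its partners, whose intervals lay below that of EZH2.

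The histone chaperones RBBP4 and RBBP7, which serve both PRC2 and NuRD, had ratios on opposite sides of 1. RBBP4 had 132.1 CPM in the library labelled knockout and 170.2 CPM in the control, a ratio of 0.776 (0.736 to 0.819). RBBP7 had 205.8 CPM in the library labelled knockout and 179.5 CPM in the control, a ratio of 1.15 (1.10 to 1.20). Its log2 ratio of 0.20 was 0.08 with TMM and 0.04 with the median of gene ratios, close to 0. Exons of TXLNG overlap RBBP7 and exons of SYNC overlap RBBP4, each on the opposite strand, and their part in these values was not tested. RBBP7 made up 60.9% of the pair's counts in the library labelled knockout (59.6% to 62.2%) and 51.3% in the control (50.2% to 52.5%). Of the other PRC2 genes, 6 of 7 were compared. Called higher were 0 (against 6.78% of all compared genes) and lower 1 (16.7%, against 5.69% of all). PHF1, which brings PRC2 to chromatin, was called lower, with 28 counts in the library labelled knockout and 98 in the control, 2.62-fold lower (1.71 to 4.15), a call lost with a pseudocount of 5 CPM (log2 ratio -0.50). Its symbol stands on 2 rows. EZH1, the alternative enzyme, had 13.1 CPM in the library labelled knockout and 15.6 CPM in the control. The PRC2 enzymes therefore differed in their proportions: EZH2 made up 87.9% of EZH2 and EZH1 counts in the library labelled knockout (86.3% to 89.4%) and 72.3% in the control (69.7% to 74.8%). Such a share needs no scaling between the libraries, and the odds ratio was 2.79 (2.30 to 3.39).

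Both PRC1 members were lower in the library labelled knockout, though neither by 2-fold. RNF2, the ubiquitin ligase subunit, had 25.7 CPM there and 35.2 CPM in the control, a ratio of 0.729 (0.646 to 0.822). BMI1, its partner in canonical PRC1, had 67.2 CPM in the library labelled knockout and 76.9 CPM in the control, a ratio of 0.874 (0.809 to 0.943). The read-through gene COMMD3-BMI1, which shares exons with BMI1, had 0 counts in the library labelled knockout and 43 in the control. With 0 read as 3 counts it was 10.7-fold lower, with no allowance for the counting error of the 43. It did not reach a mean of 1 CPM and was not among the compared genes. Summed, both rows gave a ratio of 0.852 (0.789 to 0.919). RING1, the alternative ligase, stood on several rows and had 0 counts in both libraries, so no share of RNF2 can be given.

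Other PRC1 genes were on both sides of 0. Of 21 listed, 20 were compared and their median log2 ratio was -0.04. In each direction 1 was called (5%), near the 6.78% higher and 5.69% lower of all compared genes. L3MBTL2, a subunit of a variant PRC1, was called higher, with 60.8 CPM in the library labelled knockout and 20.8 CPM in the control (2.93-fold; 2.62 to 3.28). PCGF5, which replaces BMI1 in another variant complex, was called lower, with 73.6 CPM in the library labelled knockout and 152.8 CPM in the control, 2.08-fold lower (1.94 to 2.22). The chromobox (CBX), polyhomeotic (PHC), SCMH1, BMI1 and PCGF2 genes of canonical PRC1 were grouped after their values were seen. All 11 lay below the median of all compared genes, and 9 of 11 below 0, against 41.9% of all compared genes. Their median log2 ratio was -0.19. PHC2 had 141.8 CPM in the library labelled knockout and 235.8 CPM in the control (1.66-fold lower; 1.58 to 1.75). CBX7 was 1.62-fold lower (1.38 to 1.91) and CBX6 was 1.47-fold lower (1.40 to 1.54). Of the 5 genes that oppose Polycomb, 0 were called, against 6.78% higher and 5.69% lower of all compared genes. KDM6B, a demethylase of the PRC2 mark, had the lowest ratio of the 5, with 40.5 CPM in the library labelled knockout and 66.5 CPM in the control. BAP1, a deubiquitinase of the PRC1 mark, had 114.3 CPM in the library labelled knockout and 110.6 CPM in the control, and its cofactor ASXL1 had 107.3 CPM in the library labelled knockout and 100.5 CPM in the control.

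**Figure D2:**
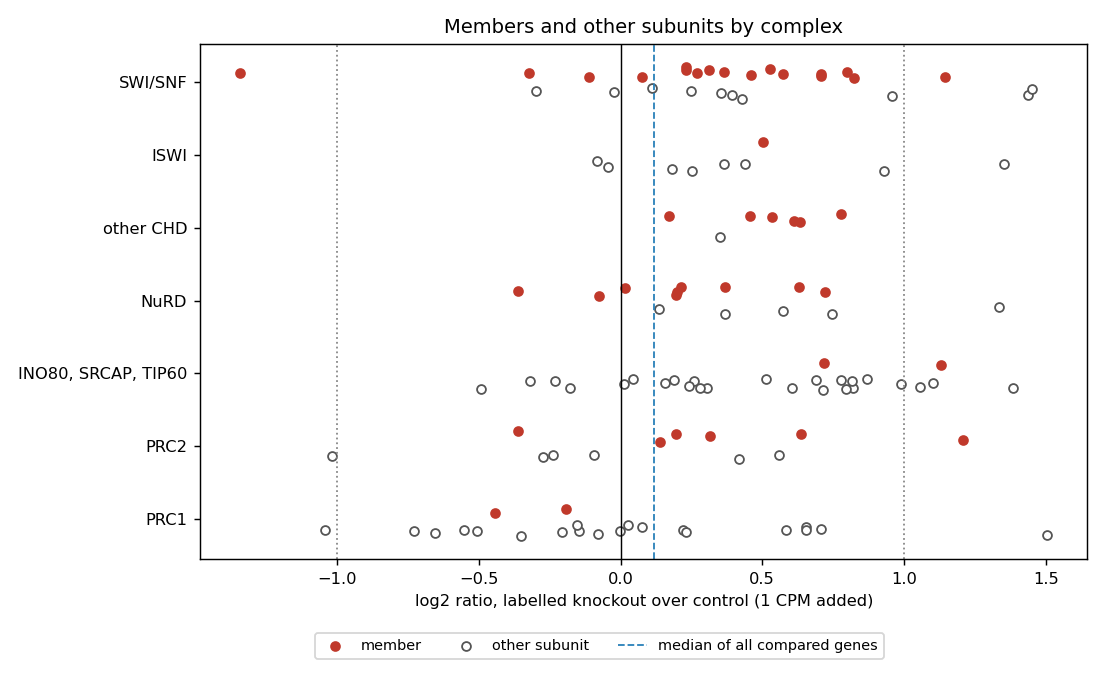
Log2 ratio of the library labelled knockout over the control (1 CPM added) for compared members (filled) and the other subunits of each complex (open), 1 point per gene, with RBBP4 and RBBP7 drawn under both NuRD and PRC2. Dotted lines mark 2-fold and the dashed line the median of all compared genes, 0.12; 15 of 22 PRC1 points lie to its left and all CHD points to its right.

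SWI/SNF members mostly had higher values in the library labelled knockout. Of 18, 17 were compared and 15 lay between the 2-fold limits. In each direction 1 was called (5.88%), near the 6.78% higher and 5.69% lower of all compared genes. Above 0 lay 14 (82.4%, against 58.1% of all compared genes), SMARCD1 among them only with library totals. The median log2 ratio was 0.37. ARID1A, the large DNA-binding subunit of canonical BAF on chromosome 1 (26693236 to 26782110), had 228 CPM in the library labelled knockout (3740 counts) and 102.7 CPM in the control (2247 counts), 2.22-fold higher (2.11 to 2.34). Its log2 ratio of 1.14 was 1.02 with TMM and 0.99 with the median of gene ratios, under the 2-fold rule. ARID1B, its paralogue, had 72.7 CPM in the library labelled knockout and 44.1 CPM in the control (1.65-fold; 1.51 to 1.79). DPF2, which reads modified histone tails, had 103 CPM in the library labelled knockout and 85.5 CPM in the control.

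The alternative ATPases SMARCA4 and SMARCA2 were both higher in the library labelled knockout. SMARCA2 had 132.9 CPM there and 74.6 CPM in the control (1.78-fold; 1.67 to 1.90), and SMARCA4 had 297.6 CPM in the library labelled knockout and 181.8 CPM in the control (1.64-fold; 1.57 to 1.71). Their proportions lay close, as SMARCA4 made up 69.1% of the pair's counts in the library labelled knockout (68.0% to 70.2%) and 70.9% in the control (69.7% to 72.1%). Among genes particular to PBAF, the bromodomain subunit PBRM1 had 125.3 CPM in the library labelled knockout and 71.7 CPM in the control (1.75-fold; 1.64 to 1.87). ARID2, a DNA-binding subunit, had 48.0 CPM in the library labelled knockout and 31.99 CPM in the control (1.501-fold). BRD7, a bromodomain subunit, had 150.2 CPM in the library labelled knockout and 128 CPM in the control (1.17-fold), and PHF10 had 35.8 CPM in the library labelled knockout and 30.4 CPM in the control (1.18-fold). BRD9, which marks the non-canonical complex, had 37.4 CPM in the library labelled knockout and 26.9 CPM in the control (1.39-fold; 1.24 to 1.56). Exons of TRIP13 on the opposite strand overlap it, with 1573 counts in the library labelled knockout and 1350 in the control. So do exons of ZDHHC11 on the same strand (41 counts in the library labelled knockout and 30 in the control). The part of both in the BRD9 value was not tested. Exons of C6orf120 on the opposite strand overlap PHF10, with 790 counts in the library labelled knockout and 954 in the control. The part of C6orf120 in the PHF10 value was not tested.

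The structural core lay on both sides of 0, with a median log2 ratio of 0.07 over 7 compared genes. SMARCC1, a scaffold of all SWI/SNF forms, had 296.6 CPM in the library labelled knockout and 205.7 CPM in the control (1.44-fold; 1.38 to 1.502), and its paralogue SMARCC2 had 167.4 CPM in the library labelled knockout and 129.7 CPM in the control (1.29-fold; 1.22 to 1.36). Exons of MYL6 on the opposite strand overlap SMARCC2, with 3959 counts in the library labelled knockout and 5824 in the control. The part of MYL6 in the SMARCC2 value was not tested. ACTL6A, an actin-related subunit, had 162.7 CPM in the library labelled knockout and 130.8 CPM in the control (1.24-fold). SMARCE1, which carries an HMG box, had 109.5 CPM in the library labelled knockout and 118.3 CPM in the control, a ratio of 0.926 (0.871 to 0.984).

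The 3 interchangeable SMARCD subunits went different ways. SMARCD1 had 91.2 CPM in the library labelled knockout and 86.6 CPM in the control, with an interval of 0.984 to 1.13 that includes 1. SMARCD2 had 129.3 CPM in the library labelled knockout and 162.01 CPM in the control, a ratio of 0.798 (0.756 to 0.842). SMARCD3, the form known from heart and muscle, was scarce in both, with 33 counts (2.01 CPM) in the library labelled knockout and 145 (6.63 CPM) in the control, 3.29-fold lower (2.24 to 4.97). SMARCD3 lies on chromosome 7 (151238764 to 151277896), and exons of CHPF2 on the opposite strand overlap it. CHPF2 was also lower in the library labelled knockout, with 186 counts there and 444 in the control. No source used here says whether counting used strand, and the part of CHPF2 in the SMARCD3 value was not tested. With a pseudocount of 5 CPM its log2 ratio was -0.73 and the call was lost. Within the family, SMARCD1 made up 41.0% of counts in the library labelled knockout (39.4% to 42.6%) and 33.9% in the control (32.7% to 35.2%).

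SMARCB1, the core subunit lost in rhabdoid tumours, had 0 counts in both libraries, which allows up to 0.183 CPM in the library labelled knockout and 0.137 CPM in the control by counting alone. Its symbol stands on 2 rows. Of 955 protein-coding symbols on several rows, 531 (55.6%) had 0 counts in both libraries, against 22.0% of 17426 on 1 row. The value is therefore not read as absence of SMARCB1 RNA. GATAD2B also stands on 2 rows and its low value, 48 counts in the library labelled knockout and 53 in the control, carries the same doubt.

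**Figure D3:**
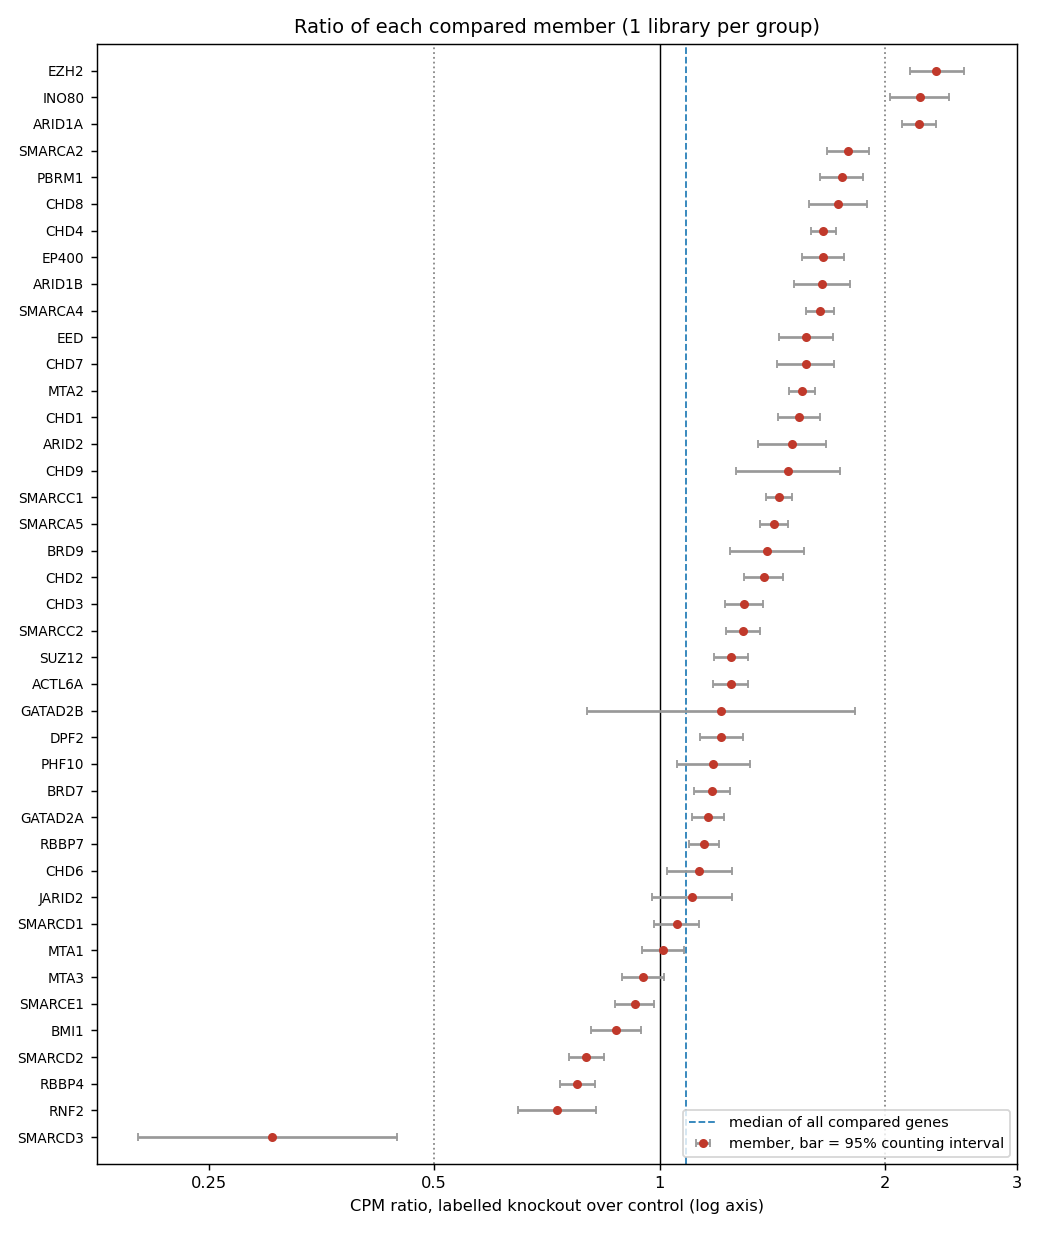
CPM ratio (log axis, no pseudocount) of the 41 compared members, labelled knockout over control, with exact 95% counting intervals as bars; dotted lines mark 2-fold and the dashed line the median of all compared genes. EZH2, INO80 and ARID1A lie beyond 2-fold at the top and SMARCD3 at the bottom. With library totals, 30 members have an interval wholly above 1 while 6 have one wholly below it. The other scalings move all ratios down, and the same counts were not taken over all compared genes.

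Of the 8 CHD helicases, 0 were called at 2-fold, against 6.78% higher and 5.69% lower of all compared genes. With library totals their log2 ratios ran from 0.17 to 0.78, so 8 of 8 lay above 0, against 58.1% of all compared genes. They stayed above 0 with the 3 other scalings, CHD6 only just (0.02 with the median of gene ratios). CHD4, the main NuRD motor, had 348.7 CPM in the library labelled knockout and 211 CPM in the control (1.65-fold; 1.59 to 1.72). CHD3, the alternative motor, had 141.2 CPM in the library labelled knockout and 109 CPM in the control (1.30-fold; 1.22 to 1.37). CHD4 made up 71.2% of both in the library labelled knockout (70.2% to 72.2%) and 65.9% in the control (64.8% to 67.0%). CHD8, which binds beta-catenin and is linked to autism, had 68.1 CPM in the library labelled knockout and 39.3 CPM in the control (1.73-fold; 1.58 to 1.89). CHD7, mutated in CHARGE syndrome, had 66.3 CPM in the library labelled knockout and 42.4 CPM in the control (1.57-fold). CHD1, which acts at transcribed genes, had 121.1 CPM in the library labelled knockout and 78.9 CPM in the control (1.53-fold), and CHD2 had 132.3 CPM in the library labelled knockout and 96.2 CPM in the control (1.38-fold). CHD9 had 19.9 CPM in the library labelled knockout and 13.4 CPM in the control (1.48-fold). CHD6 was the least different, with 43.9 CPM in the library labelled knockout and 38.8 CPM in the control (1.13-fold; 1.02 to 1.25), and its share of the CHD6 to CHD9 group was 22.1% in the library labelled knockout (20.7% to 23.6%) and 28.99% in the control (27.4% to 30.7%). The related CHD1L had 71.1 CPM in the library labelled knockout and 55.6 CPM in the control (1.28-fold), and CHD5 had 1 count in the library labelled knockout and 9 in the control, too few to compare.

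NuRD subunits divided among paralogues. MTA2, of the MTA family that ties deacetylases into the complex, had 317.7 CPM in the library labelled knockout and 205.2 CPM in the control (1.55-fold; 1.49 to 1.61). MTA1 had 96.5 CPM in the library labelled knockout and 95.5 CPM in the control. MTA3 had 96.4 CPM in the library labelled knockout and 101.5 CPM in the control. With library totals the intervals of both include 1. With TMM the log2 ratios of MTA1 and MTA3 were lower, at -0.11 and -0.19. MTA2 thus made up 62.2% of the family's counts in the library labelled knockout (61.2% to 63.3%) and 51.0% in the control (49.97% to 52.1%). GATAD2A, which bridges the MBD and CHD subunits, had 184.4 CPM in the library labelled knockout and 158.9 CPM in the control (1.16-fold). All 5 other NuRD genes lay above the median of all compared genes, where 50% lie by construction. In this short list 1 gene was called higher (20%, against 6.78% of all compared genes). It was the deacetylase HDAC1, with 177.4 CPM in the library labelled knockout and 69.7 CPM in the control, 2.54-fold higher (2.39 to 2.71). The methyl-CpG binding family gene MBD3 had 108.1 CPM in the library labelled knockout and 64.1 CPM in the control (1.69-fold).

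**Figure D4:**
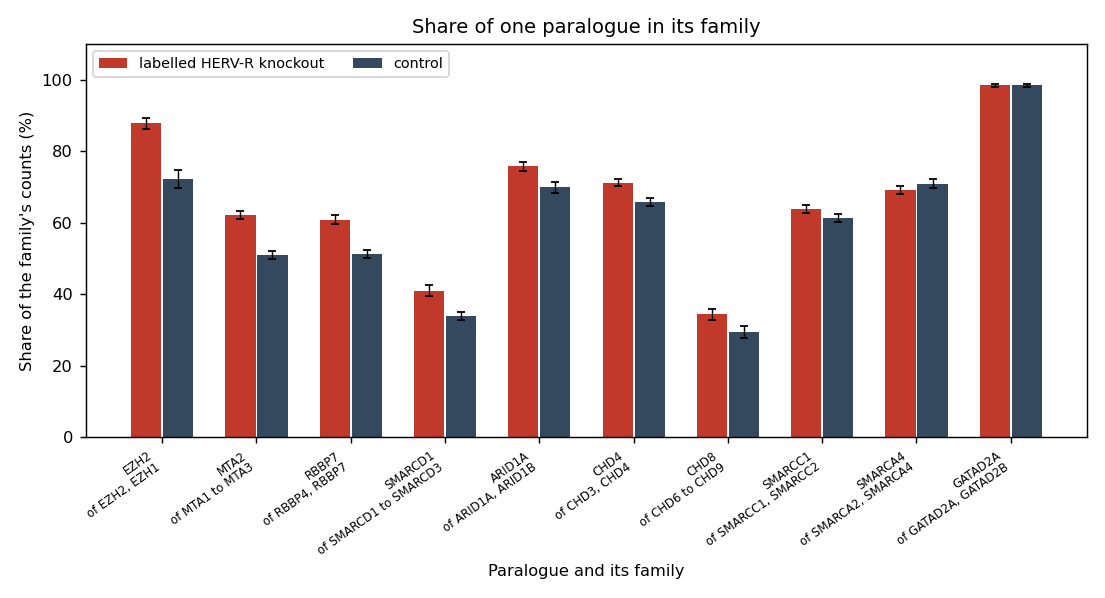
Share of a named paralogue in the summed raw counts of its family (bars from 0, in percent) in the library labelled knockout and, to its right, the control, with exact 95% counting intervals. EZH2 shows the widest gap, 87.9% against 72.3%, MTA2 and RBBP7 follow, and GATAD2A and SMARCA4 are nearly level. The GATAD2A share carries the doubt about GATAD2B, whose symbol stands on 2 rows.

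INO80, the motor of the complex of the same name on chromosome 15 (40978880 to 41116354), had 79.3 CPM in the library labelled knockout (1301 counts) and 35.7 CPM in the control (781 counts), 2.22-fold higher (2.03 to 2.43). Its log2 ratio of 1.13 was 1.01 with TMM and 0.99 with the upper quartile, under the 2-fold rule. EP400, the motor of the TIP60 complex, had 126.1 CPM in the library labelled knockout and 76.3 CPM in the control (1.65-fold; 1.55 to 1.76). Of 27 other genes of the INO80, SRCAP and TIP60 complexes, 25 were compared. Called higher were 3 (12%, against 6.78% of all compared genes) and lower 0 (against 5.69% of all). Above the median of all compared genes lay 19, and the median log2 ratio was 0.51. SRCAP, the third motor of this class, had 162.6 CPM in the library labelled knockout and 61.7 CPM in the control (2.64-fold; 2.47 to 2.82). RUVBL1, an ATPase that all 3 complexes share, had 150.2 CPM in the library labelled knockout and 69.5 CPM in the control (2.16-fold), and EPC2, a TIP60 subunit, had 85.2 CPM in the library labelled knockout and 40.4 CPM in the control (2.11-fold). With TMM the log2 ratios of RUVBL1 and EPC2 were 0.98 and 0.94, under the 2-fold rule.

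SMARCA5, the ISWI motor, had 246.9 CPM in the library labelled knockout and 173.8 CPM in the control (1.42-fold; 1.36 to 1.49), while its paralogue SMARCA1 had 0 counts in the library labelled knockout and 1 in the control. Among 8 compared ISWI partners 1 was called higher (12.5%, against 6.78% of all compared genes). It was BAZ1B, with 321 CPM in the library labelled knockout and 125.1 CPM in the control, 2.57-fold higher (2.45 to 2.69). Among 10 other SWI/SNF genes 2 were called higher (20%, against 6.78% of all compared genes). They were DPF1 and DPF3, paralogues of DPF2 known from nerve and muscle. Shares in lists this short rest on 1 or 2 genes. DPF1 had 103 counts in the library labelled knockout and 37 in the control (3.71-fold; 2.53 to 5.56). DPF3 had 92 counts in the library labelled knockout and 31 in the control (3.96-fold; 2.61 to 6.15). With a pseudocount of 5 CPM the log2 ratios of DPF1 and DPF3 were 0.75 and 0.73, under the 2-fold rule. The lists of other genes of these complexes, with the 5 genes that oppose Polycomb, held 80 compared genes, called other subunits below. Of the 80, 8 were called higher (10.0%, against 6.78% of all compared genes) and 2 lower (2.50%, against 5.69%). With TMM, 6 were higher and 2 lower. Their median log2 ratio was 0.25, against 0.12 for all genes, and 48 lay above the median of all compared genes.

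Levels between members were compared per kb of transcript, taken from the GENCODE 29 transcript with the longest coding sequence. MTA2 had the highest level per kb in the library labelled knockout (103.9 CPM per kb, against 67.1 in the control), followed by RBBP7, with 101.1 CPM per kb there and 88.1 in the control, where it led. GATAD2B, whose low value is in doubt because its symbol stands on 2 rows, was the lowest in both. Next came SMARCD3 in the library labelled knockout (1.01 CPM per kb) and CHD9 in the control (1.17). EZH2 stood at place 13 of 41 in the library labelled knockout (36.2 CPM per kb) and at place 22 in the control (15.5), and ARID1A at place 18 in the library labelled knockout (26.6) and place 27 in the control (12.0). The log2 ratio had a Spearman correlation of 0.36 with transcript length over the 41 members, 0.03 over 11219 compared genes with a length and -0.14 over the 80 other subunits. These are correlations across genes of the same 2 libraries and carry no p-value. In the class over 6.5 kb, 14 members had a median log2 ratio of 0.55, against 0.18 for 1431 genes. Below 2 kb, 5 members had a median of 0.23, against 0.09 for 2817 genes. Set against all genes of their own length class, 31 of 41 members lay above the class median and 10 below, and the median difference over all 41 was 0.26.

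**Figure D5:**
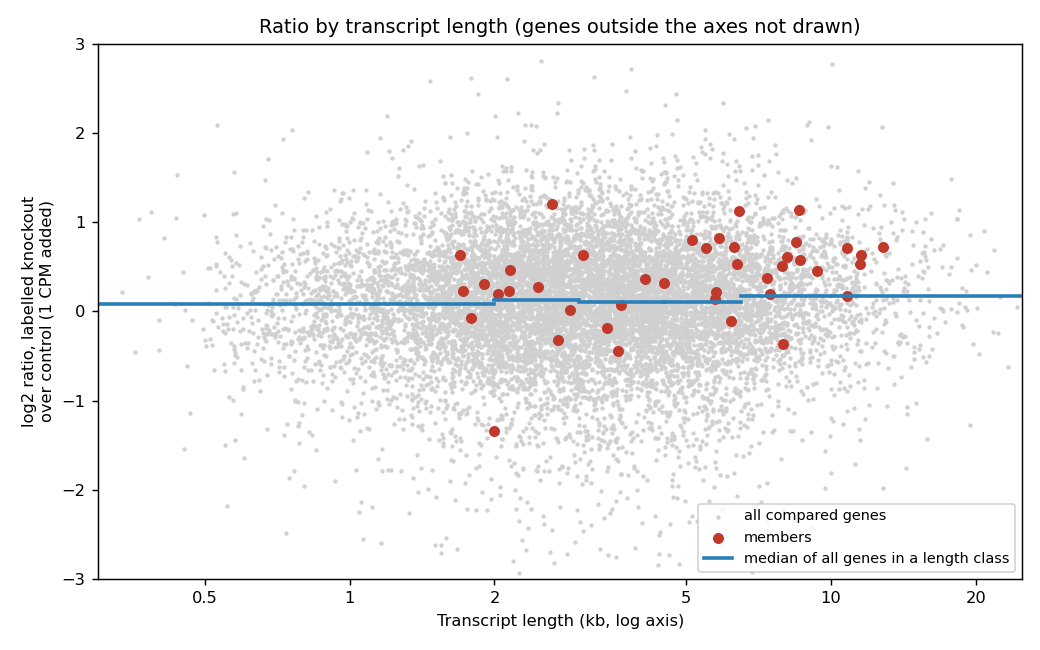
Log2 ratio of the library labelled knockout over the control (1 CPM added) against transcript length in kb (log axis), with all compared genes in grey, the members filled and the median of all genes in each of 5 length classes as horizontal lines. The class medians stay between 0.09 and 0.18, and the long members lie mostly above them.

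Homeobox (HOX) genes and the cell cycle inhibitors CDKN2A and CDKN2B, textbook targets of Polycomb repression, went both ways. Of 41 listed, 23 were compared, and the median log2 ratio was -0.05. Called higher were 2 (8.70%, against 6.78% of all compared genes) and lower 1 (4.35%, against 5.69%). Both shares are near those of all genes. HOXA5 had 30.6 CPM in the library labelled knockout and 14.0 CPM in the control (2.18-fold; 1.89 to 2.52), and HOXC6 had 108 counts in the library labelled knockout and 54 in the control (2.67-fold; 1.91 to 3.77). HOXB5 had 10.1 CPM in the library labelled knockout and 24.5 CPM in the control (2.43-fold lower; 2.04 to 2.91). The HOXA5 call was lost with TMM (log2 ratio 0.96), and those of HOXC6 and HOXB5 with a pseudocount of 5 CPM (0.63 and -0.97). By cluster, 8 of 11 HOXA genes lay above 0, against 58.1% of all compared genes, HOXA11 only with library totals. Their median was 0.51. Below 0 lay 7 of 8 HOXB genes, against 41.9% of all compared genes, with a median of -0.33. CDKN2A had 0 counts in both libraries, and CDKN2B had 0 counts in the library labelled knockout and 17 in the control.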

How the data were processed

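RNA was measured in 2 libraries of DLD1 cells, 1 labelled HERV-R knockout and 1 control. The authors deposited raw counts per gene symbol, whole numbers with no normalization, in tables of 58173 rows. TopHat and GRCh38 are named in the submitters' processing notes. Trizol extraction and a directional library kit are stated, per the labels' protocols. The sources used here name no TopHat version, counting program, annotation or strand setting.

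Rows of 1 symbol were summed and scaled to CPM by the library total. Log2 ratios carry a pseudocount of 1 CPM. Exact intervals (scipy 1.17.1) treat reads as independent, so PCR duplicates would make them too narrow. The limit for a gene at 0 is 3 counts. Scaling alternatives used edgeR 4.0.16 and DESeq2 1.42.0, for factors only. The pseudocount, the minimum mean CPM and the fold rule were also varied. The ratio and its interval were tested on simulated data. Transcript lengths came from GENCODE 29 for all 43 members, and promoters from RefSeq.

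All 43 members were named. Of each other list, the genes past the 2-fold rule were named (at most 6 in a direction) or, where none passed, the 2 of highest mean CPM, with ERV3-1 as the check of the label. Other named genes (EPCAM, EZH1, MBD3, PHC2, CBX6, CBX7, KDM6B, HOXA11, the read-through and overlapping genes, and genes at or near 0) and the canonical PRC1 and HOX cluster groups were chosen after their values were seen. The members, lists and motifs were chosen with earlier results of these data known. Exons of other genes overlap 11 members on the opposite strand and 4 on the same strand. Pseudogenes with counts were SUZ12P1 (139 in the library labelled knockout and 169 in the control), BRD7P2 (8 and 7) and RBBP4P1 (1 and 1). Reads of these genes may therefore be shared.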

Additional observations from a re-analysis of the deposited data

How the results depend on the processing

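No paired analysis was possible because each group has 1 library, and for the same reason no replicate could be left out. In this section, too, the other subunits include the 5 genes that oppose Polycomb. With TMM, the upper quartile and the median of gene ratios, the median log2 ratio was 0.25, 0.23 and 0.21 for members, 0.14, 0.12 and 0.10 for other subunits, and 0.00628, -0.0123 and -0.0284 for all genes, so that of all genes turned with the last 2. With the median of gene ratios, 1 member and 547 genes were higher. With a pseudocount of 5 CPM, 0 members were lower, 5 other subunits higher and 1 lower, and 426 genes higher and 371 lower. With a minimum mean of 5 CPM, 0 members and 1 other subunit were lower. At 1.5-fold, 14 members, 23 other subunits and 2567 genes were higher, and 5 other subunits and 1674 genes lower. At 3-fold, 0 members and 0 other subunits passed in either direction, against 118 genes higher and 229 lower. Both folds change the counts by construction. The next 2 alternatives, and shares per kb of coding sequence, were chosen after seeing the data. At 1.5-fold with TMM, 10 members, 19 other subunits and 1958 genes were higher, and 8 other subunits and 2131 genes lower. With symbols on a single row, 1 other subunit was lower. SMARCD1, MTA1 and JARID2 lay above 0 with library totals and below it with the median of gene ratios. Shares per kb used GENCODE coding lengths, as the planned protein table was not used here, and that of EZH2 was then 87.9% in the library labelled knockout and 72.2% in the control. The depth limits SMARCD3 and GATAD2B most, whose intervals are the widest of the compared members.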
